A study of Capra hircus with 2 samples.

Results

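WNT5A, its relative WNT2B and 6 secreted WNT inhibitors (SFRP1, SFRP2, SFRP4, DKK1, DKK2 and DKK3) were followed across the cell types of the fetal goat ovary. The genes were chosen by symbol, and each of the 8 symbols matched 1 of the 27271 features of the count matrices. The samples were ovaries of female goat (Capra hircus) fetuses at the embryonic days that the labels write as E85 and E125, dissociated with enzymes and profiled as single cells by droplet sequencing of 3′ ends. There was 1 library per stage, with no genotype or treatment beyond the stage, and the labels do not say how many fetuses a library held. The preparation text attached to both samples speaks of testes, whereas the source, the titles and the cells themselves (oocytes with ZP3 and FIGLA, pregranulosa cells with FST and AMH) were ovarian.

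WNT proteins are secreted, lipid-modified ligands that bind frizzled receptors. With the co-receptors LRP5 and LRP6 they stabilise beta-catenin. With ROR1, ROR2 or RYK they act without it, on cell polarity and movement, and WNT5A is the best known ligand of that kind. SFRP proteins carry a frizzled-like domain and bind WNT ligands outside the cell, while DKK proteins of the DKK1 type bind LRP5 and LRP6. In the developing ovary the beta-catenin arm, with RSPO1 and WNT4, is known for its part in the differentiation of pregranulosa cells.

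The libraries held 4397 barcodes and 17748948 UMIs (unique molecular identifiers, each marking 1 captured transcript) at E85, and 8346 barcodes and 49692252 UMIs at E125. The median per barcode was 2991 and 3044 UMIs, 13 barcode sequences occurred in both libraries, and 3832 and 7034 cells remained after filtering. Levels below are in CPM, the UMIs of a gene summed over a cell class in 1 library and scaled to the total UMIs of that class. Intervals are 95% intervals for counting error only. With 1 library per stage there is no replicate check, no test was possible, and stage cannot be told apart from library. A gene is called higher or lower at 2-fold or more with at least 50 UMIs over both groups, and only such genes are "measured" in the counts below. Levels of different genes are not compared with each other, because 3′ counts carry no common scale between genes.

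Cells were clustered without the 8 genes and classes were named from markers. Stromal-like cells made up 72.8% of kept cells at E85 (2790 cells) and 64.1% at E125 (4511 cells), with median depths of 2758 and 2805 UMIs. All 9 stromal markers that had a feature were detected in them in both libraries, with a summed level of 6516 CPM at E85 and 8492 CPM at E125. Stromal-like cells split into 6 subtypes at E85 and 5 at E125, named here by a leading gene. At E85 they were a CA3-rich subtype (1719 cells, also led by ITIH5 and TCF21), a PENK-rich subtype (654 cells, with LRRN3, NPY and COL1A1), a POSTN-led subtype (92 cells, with HOXA10 and LUM), an interferon-response subtype (126 cells, with ISG15 and MX1) and dividing subtypes led by mitosis genes (110 cells) or DNA replication genes (85 cells). At E125 they were an MGP-rich subtype (1542 cells, with THBS1 and APOD), a CCN3-led subtype (1363 cells, with TCF21), a CCL11-led subtype (791 cells, with CHODL and CXCL14), a PENK-rich subtype (709 cells, with DLK1, IGFBP3 and COL1A1) and a replication subtype (105 cells). The large subtypes (CA3-rich, MGP-rich, CCN3-led, CCL11-led and both PENK-rich ones) and the POSTN-led one were each almost wholly from 1 library and could not be followed from stage to stage. The replication, interferon-response and mitosis clusters held cells of both libraries. The E125 cells of the interferon cluster (102) fell just short of the naming limit, and those of the mitosis cluster (219) had pregranulosa markers highest, so neither counts as stromal-like at E125.

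At E125 WNT5A and the inhibitor SFRP2 were both highest in MGP-rich stromal cells, whereas SFRP1 was highest in PENK-rich cells and DKK1 in CCL11-led cells. SFRP2 was present in every subtype. WNT5A reached 718 CPM (696 to 742) in MGP-rich cells, 394 CPM (372 to 416) in CCN3-led cells, 332 CPM (286 to 385) in replication cells, 101 CPM (89.3 to 114) in CCL11-led cells and 75.8 CPM (65.5 to 87.3) in PENK-rich cells. No neighbours in that order overlapped except the CCN3-led and replication subtypes, and the CCL11-led and PENK-rich intervals were apart by a small margin. Against all other stromal-like cells of the library, WNT5A was 3.38-fold higher in MGP-rich cells (3.19 to 3.57), 4.66-fold lower in CCL11-led cells (4.11 to 5.29) and 6.26-fold lower in PENK-rich cells (5.42 to 7.27). MGP-rich cells were 34.2% of the stromal-like cells at E125 and held 37.7% of their UMIs and 67.1% of their WNT5A UMIs (65.9 to 68.3).

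SFRP1 had another order. It stood at 141 CPM in PENK-rich cells (127 to 157, 358 UMIs), at 33.2 CPM in replication cells, at 21.2 CPM in CCN3-led cells, at 11.9 CPM in CCL11-led cells and at 7.49 CPM in MGP-rich cells (5.35 to 10.2, 40 UMIs). Below the PENK-rich cells each interval overlapped that of its neighbour in this order. PENK-rich cells were 10.6-fold above the other stromal-like cells (8.72 to 12.8). MGP-rich cells were 7.16-fold below the rest (5.18 to 10.2) and CCL11-led cells 3.50-fold below (2.43 to 5.20). PENK-rich cells held 17.9% of the stromal UMIs and 69.6% of the SFRP1 UMIs. Markers of perivascular cells, the contractile cells around vessels, were also highest there among the stromal subtypes: the summed level of the 9 markers was 2115 CPM in PENK-rich cells and between 369 and 657 CPM in the other E125 subtypes. Perivascular-like cells themselves, at 10305 CPM of those markers, held 0 SFRP1 UMIs among 607279 UMIs, with an upper limit of 6.07 CPM. The part of perivascular cells in the SFRP1 level of PENK-rich cells was not tested.

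SFRP2 had its highest level in the same subtype as WNT5A. It was 421 CPM in MGP-rich cells (404 to 439), 365 CPM in CCN3-led cells (345 to 387), 227 CPM in PENK-rich cells (209 to 246), 219.7 CPM in replication cells (182 to 263) and 146 CPM in CCL11-led cells (132 to 162). The PENK-rich and replication intervals overlapped. Only the CCL11-led cells passed 2-fold against the rest, at 2.42-fold lower (2.18 to 2.70). SFRP2 thus spanned a narrower range than WNT5A over the same subtypes: MGP-rich over PENK-rich cells gave 1.86 for SFRP2 (1.69 to 2.04), 9.48 for WNT5A (8.20 to 11), and 18.9-fold in the opposite direction for SFRP1 (13.6 to 26.9). The SFRP1 ratio depended on the clustering: MGP-rich over PENK-rich cells was 0.0530, but 0.0158 at Leiden resolution 2 and 0.160 at resolution 0.5.

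DKK1 was rare and local. CCL11-led cells had 37.7 CPM (30.6 to 45.9, 98 UMIs), followed by PENK-rich cells at 7.90 CPM (20 UMIs) and replication cells at 7.39 CPM (4 UMIs), whose intervals overlapped. CCN3-led cells had 1.26 CPM from 4 UMIs and MGP-rich cells 0.561 CPM from 3 UMIs. The CCL11-led subtype stood 14.1-fold above the other stromal-like cells (9.32 to 21.8) and held 76.0% of the stromal DKK1 UMIs (67.7 to 83.1) with 18.3% of all stromal UMIs. The CCN3-led cells were 8.98-fold below the rest (3.42 to 33.5) and the MGP-rich cells 25.4-fold below, with a lower bound of 8.49; these rest on 4 and 3 UMIs.

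Of the 4 members measured over the E125 subtypes, 1 was higher and 2 were lower in MGP-rich cells, 1 was lower in CCN3-led cells, 1 was higher and 3 were lower in CCL11-led cells, and 1 was higher and 1 lower in PENK-rich cells. Over all measured features, 2.36% were higher and 3.81% lower in MGP-rich cells, and 2.71% were lower in CCN3-led cells. In CCL11-led cells 1.46% were higher and 4.96% lower, and in PENK-rich cells 3.34% were higher and 7.97% lower. None of the 4 passed 2-fold in the replication subtype.

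The other members were near the limit of detection in stroma at E125. WNT2B, a ligand that acts mainly through beta-catenin, ranged from 1.12 CPM in MGP-rich cells to 3.55 CPM in PENK-rich cells, with 30 UMIs in the whole class. DKK3 had 31 UMIs, 19 of them in MGP-rich cells (3.56 CPM). DKK2 had 17 UMIs, 10 of them in MGP-rich cells. SFRP4 had 3 UMIs in all E125 stromal-like cells, and over all barcodes 3 at E85 and 6 at E125, so its distribution was not detectable at this depth.

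**Figure D1:**
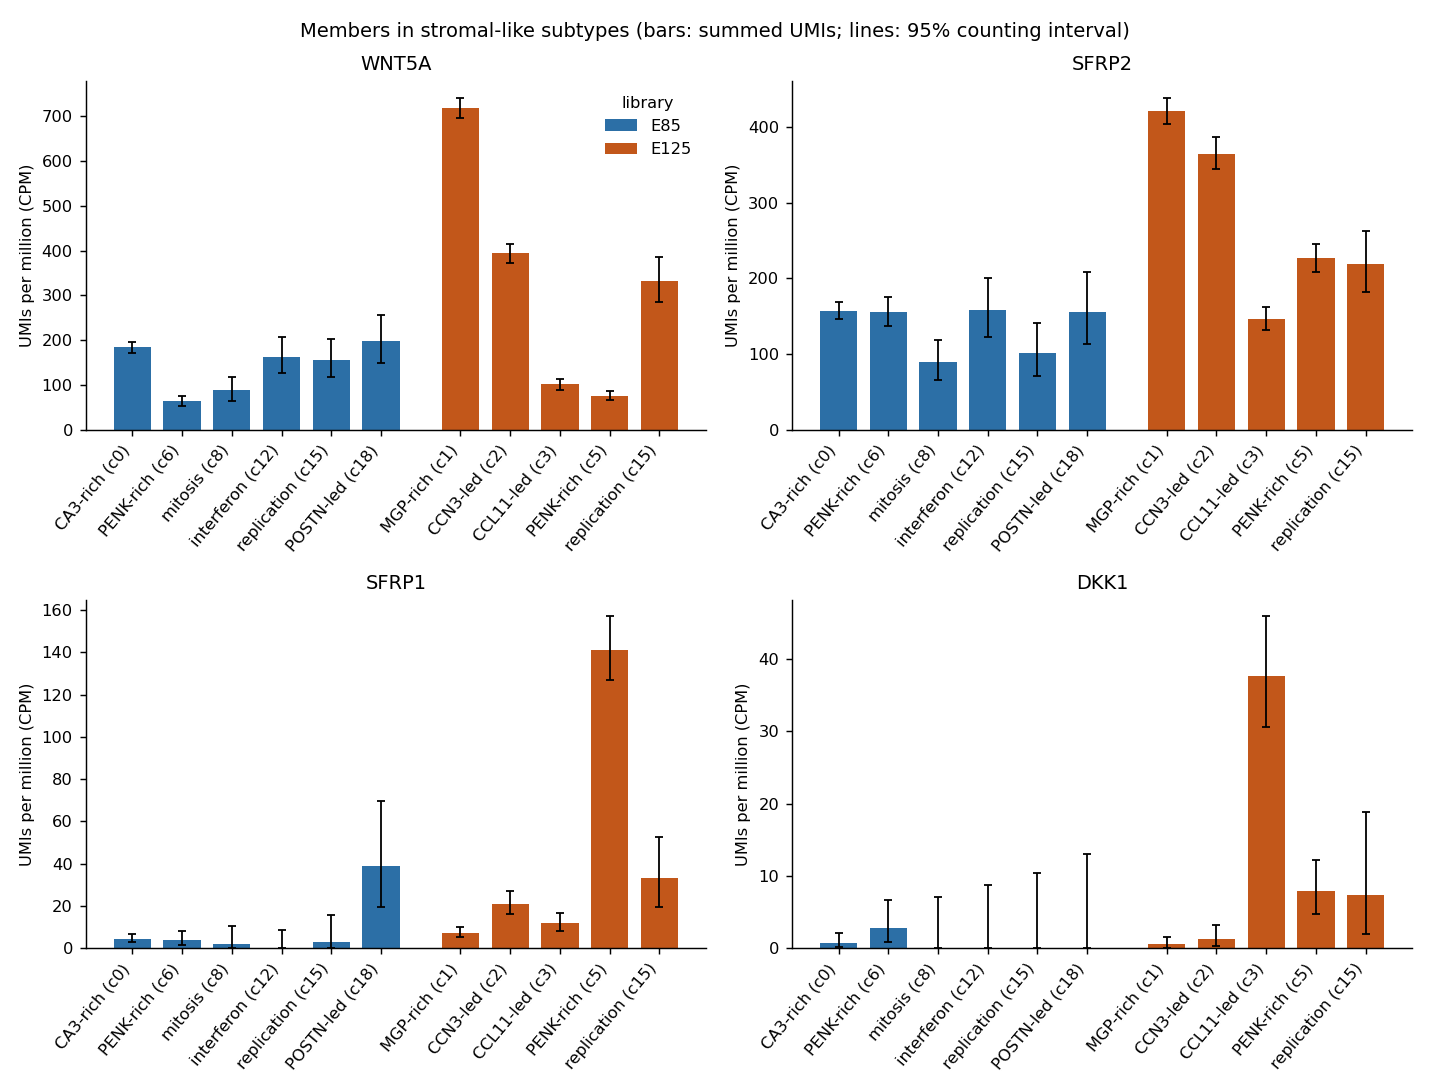
Level (CPM of summed UMIs) of WNT5A, SFRP2, SFRP1 and DKK1 in the 6 E85 (blue) and 5 E125 (orange) stromal subtypes; lines are 95% Poisson intervals. At E125 WNT5A peaks in MGP-rich cells (718 CPM), SFRP1 in PENK-rich cells (141 CPM) and DKK1 in CCL11-led cells (37.7 CPM).

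At E85 only 2 members, WNT5A and SFRP2, were measured over the subtypes, against 4 at E125. Both spanned a narrower range over the E85 subtypes than over the E125 subtypes. WNT5A was 198 CPM in POSTN-led cells (149.5 to 257), 184 CPM in CA3-rich cells (172 to 197), 163 CPM in interferon-response cells, 156 CPM in replication cells, 87.7 CPM in mitosis cells and 63.1 CPM in PENK-rich cells (51.9 to 76.0). The first 4 of these overlapped, and the last pair overlapped. WNT5A in PENK-rich cells was 2.76-fold below the other stromal-like cells (2.27 to 3.39, from 110 UMIs), where 5.58% of measured features were lower. It was the only call among the 2 members measured over the E85 subtypes, and it was lost (0 calls) at Leiden resolution 0.5 and with the members among the variable genes. The CA3-rich to PENK-rich ratio was 2.92 (2.39 to 3.59), and it fell to 1.75 when the libraries were clustered separately. Perivascular markers summed to 796 CPM in PENK-rich cells and to 307 CPM in CA3-rich cells; their part in the WNT5A difference was not tested.

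SFRP2 at E85 was 157 CPM in CA3-rich cells (146 to 169), 155 CPM in PENK-rich cells, 158 CPM in interferon-response cells and 156 CPM in POSTN-led cells. It was lower in replication cells (102 CPM, 71.3 to 141) and mitosis cells (89.6 CPM, 65.9 to 119). Both of these intervals lay below that of CA3-rich cells. The CA3-rich to PENK-rich ratio of SFRP2 was 1.01 (0.880 to 1.17). SFRP1 was scarce, with 42 UMIs in the class and 4.46 CPM in CA3-rich and 4.02 CPM in PENK-rich cells. The 92 POSTN-led cells held 11 of those UMIs, a level of 38.9 CPM (19.4 to 69.6) whose interval lay above those of the CA3-rich and PENK-rich cells. DKK1 had 9 UMIs, 5 in PENK-rich and 4 in CA3-rich cells. WNT2B was 9.18 CPM in PENK-rich cells (16 UMIs) and 4.46 CPM in CA3-rich cells (22 UMIs), 2.06-fold lower in the latter (1.01 to 4.10).

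The PENK-rich subtypes of the libraries, set side by side, had close WNT5A levels (63.1 CPM at E85 and 75.8 CPM at E125) and SFRP1 levels of 4.02 and 141 CPM. They were different clusters and are not shown to be the same cells. In the interferon cluster, with 126 cells at E85 and 102 at E125, WNT5A was 163 CPM (127 to 207) and 525 CPM (449 to 611), and SFRP2 158 CPM (123 to 201) and 343 CPM (282 to 414). In the replication subtype, which held 85 cells at E85 and 105 at E125, WNT5A was 156 and 332 CPM, SFRP2 102 and 219.7 CPM, and SFRP1 2.83 CPM (1 UMI) and 33.2 CPM (18 UMIs).

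In single cells the same pattern was seen as shares of cells with a UMI. Cells with at least 2000 UMIs were thinned to 2000 UMIs, and cells with fewer were left out. This kept 2119 of 2790 stromal-like cells at E85 and 3423 of 4511 at E125. Of the 1363 CCN3-led cells 764 were kept, so thinned shares describe the deeper cells of each group. A WNT5A UMI was found in 71.7% of MGP-rich cells (69.3 to 74.1), 48.0% of CCN3-led cells, 42.6% of replication cells, 16.1% of CCL11-led cells and 12.4% of PENK-rich cells at E125. At E85 the share was 28.1% in CA3-rich and 10.5% in PENK-rich cells. An SFRP1 UMI was found in 18.9% of E125 PENK-rich cells (15.8 to 22.3) and in 1.54% of MGP-rich cells, and a DKK1 UMI in 4.38% of CCL11-led cells.

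Co-detection was read over the whole stroma and inside each large subtype. At E125, SFRP1 was found in 2.70% of thinned stromal-like cells with a WNT5A UMI (1.95 to 3.63) and in 7.02% of those without one (5.90 to 8.27). Inside CCN3-led cells the shares were 1.09% (0.298 to 2.77) and 4.79% (2.91 to 7.37), lower with WNT5A and with intervals apart. The intervals overlapped inside the others, at 24.7% and 18.1% in PENK-rich, 1.54% and 1.56% in MGP-rich, and 2.02% and 1.93% in CCL11-led cells. SFRP2 was found in 46.4% of E125 cells with WNT5A (43.9 to 48.9) and 33.7% without (31.5 to 35.9). Inside subtypes the SFRP2 shares were 51.5% and 47.8% in MGP-rich, 42.0% and 44.1% in CCN3-led, 28.8% and 31.1% in PENK-rich, and 29.3% (20.6 to 39.3) and 19.5% (16.2 to 23.2) in CCL11-led cells, with overlapping intervals in each. At E85 SFRP2 was found in 23.8% of cells with WNT5A and 23.0% of those without.

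Cells were also split by a UMI of a gene that names or leads a subtype. MGP, a matrix protein that inhibits calcification, marked cells of which 54.4% had WNT5A at E125 (52.4 to 56.3), against 19.3% of cells without an MGP UMI (16.7 to 22.1). Within MGP-rich cells the shares were 71.8% and 71.2%, and within CCN3-led cells 51.2% and 33.3%. SFRP1 was found in 13.1% of cells with PENK, the proenkephalin gene (9.90 to 16.9), and in 4.04% of cells without. With COL1A1, the main fibrillar collagen chain, the SFRP1 share was 7.77% against 1.43%, and the WNT5A share 35.6% against 58.6%. Over all thinned E85 stromal-like cells the WNT5A share was 15.8% in PENK-positive and 23.8% in PENK-negative cells, with intervals apart by a small margin. With and without CA3 it was 23.8% and 22.6%. The PENK split at E85 mixes subtypes with different WNT5A shares, 28.1% in CA3-rich and 10.5% in PENK-rich cells. The split therefore does not show a relation of PENK to WNT5A inside a subtype. MGP, PENK, CA3 and COL1A1 were among the genes clustered, so they share the clusters' cells and are a description.

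**Figure D2:**
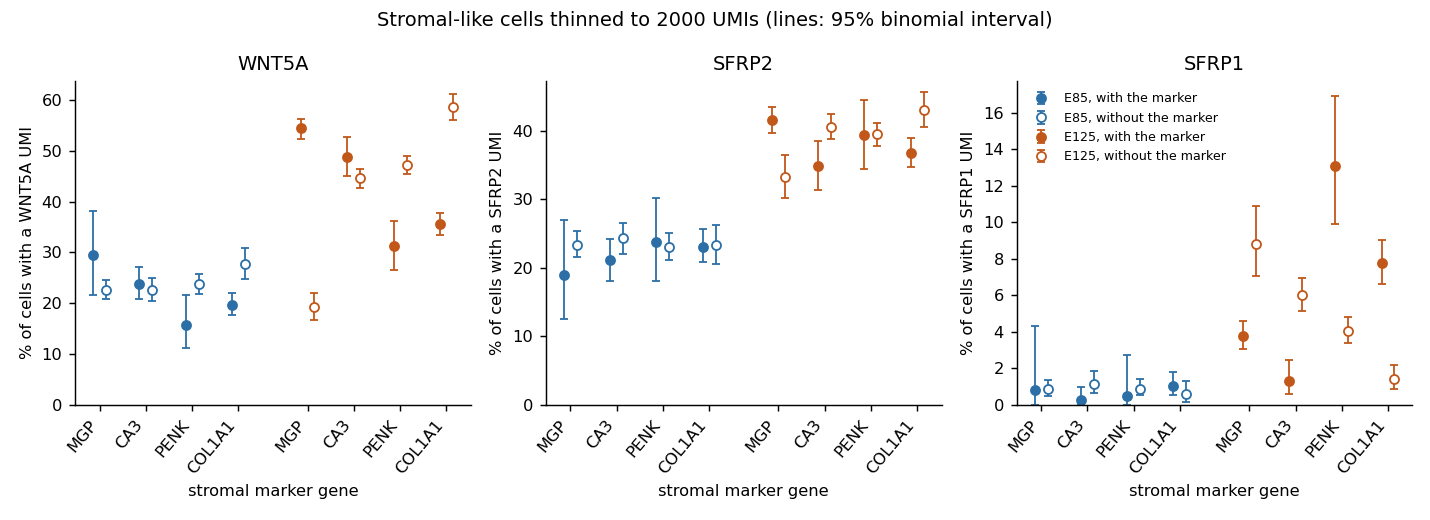
Share of thinned stromal-like cells (percent, with 95% binomial intervals) with a WNT5A, SFRP2 or SFRP1 UMI among cells with (filled) and without (open) a UMI of MGP, CA3, PENK or COL1A1, by library. At E125 WNT5A is found in 54.4% of MGP-positive and 19.3% of MGP-negative cells, and SFRP1 in 13.1% of PENK-positive and 4.04% of PENK-negative cells.

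Between the stages, 4 of the 5 members measured in stromal-like cells were higher at E125 and 1 was lower. Over all 10107 features measured there, 17.8% were higher and 12.2% lower. The median log2 ratio was 1.42 for the 5 members and -0.04 for all features. WNT5A went from 151 CPM (143 to 159, 1247 UMIs) to 403 CPM (393 to 414, 5721 UMIs), a ratio of 2.67 (2.52 to 2.85). SFRP2 went from 150.2 to 316 CPM, a ratio of 2.10 (1.98 to 2.24). The intervals of the stages did not overlap for either gene, but the call of both genes depended on how cells were named: at Leiden resolution 2 the ratios were 1.79 and 1.82, and with separate clustering 1.83 and 1.79. In these settings 1522 and 1393 E125 cells, at 569.7 and 544 CPM of WNT5A, fell in clusters without a class. Counting clusters with stromal markers highest as stromal, an alternative chosen after seeing the data, gave 2.83 and 2.27, and 2.68 and 2.10.

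SFRP1 went from 5.08 CPM (42 UMIs) to 36.2 CPM (514 UMIs) in stromal-like cells, a ratio of 7.13 (5.20 to 10.0). DKK1 went from 1.09 CPM (9 UMIs) to 9.09 CPM (129 UMIs), a ratio of 8.36 (4.27 to 18.7) that was 3.93 under a stricter cell filter. WNT2B went the other way, from 5.68 CPM (47 UMIs) to 2.11 CPM (30 UMIs), and was 2.69-fold lower (1.66 to 4.40). DKK3 (11 and 31 UMIs) and DKK2 (7 and 17 UMIs) had too few UMIs to be measured, and SFRP4 had 0 and 3. In thinned cells the share with a WNT5A UMI was 23.0% at E85 (488 of 2119 cells) and 45.5% at E125 (1556 of 3423 cells), with unthinned shares of 29.6% and 52.6%. For SFRP2 the thinned shares were 23.2% and 39.5%, for SFRP1 0.849% and 5.05%, and for DKK1 0.283% and 1.14%.

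Across cell classes, WNT5A was highest in the stroma and the surface epithelium. At E85 the order was stromal-like 151 CPM and surface epithelium-like 149 CPM (133 to 165), which did not differ beyond counting error, then perivascular-like 64.5 CPM, pregranulosa-like 62.4 CPM, lymphocyte-like 28.9 CPM, endothelial-like 16 CPM and germ cell-like 12.4 CPM, where each interval overlapped that of its neighbour. Macrophage-like cells had 0 WNT5A UMIs. At E125 the order was stromal-like 403 CPM, surface epithelium-like 287 CPM (272 to 303), perivascular-like 120.2 CPM (94.2 to 151), pregranulosa-like 65.4 CPM (59.6 to 71.7), endothelial-like 46.4 CPM (41.0 to 52.2), germ cell-like 42.1 CPM (38.3 to 46.3), glia-like 33.4 CPM and lymphocyte-like 19.9 CPM, with 0 in macrophage-like cells. From the endothelial-like cells down to the lymphocyte-like cells each interval overlapped that of its neighbour, and above them none did. Stromal-like cells held 69.7% of all WNT5A UMIs at E85 (67.5 to 71.8) and 65.6% at E125 (64.6 to 66.6), with 50.7% and 31.2% of all UMIs.

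Free RNA from broken cells can give a UMI in a cell that does not express the gene, so immune cells serve as a background. A WNT5A UMI was found in 0 of 15 and 0 of 47 thinned macrophage-like cells and in 0 of 23 and 1 of 80 lymphocyte-like cells (E85 and E125). These counts allow a share of up to 21.8% and 7.55% in macrophage-like cells by the exact binomial interval. Median depths in these cells were 7709 and 2734 UMIs for macrophage-like and 4399 and 4336 UMIs for lymphocyte-like cells. The SFRP2 share was 0 of 15 and 1 of 47 in macrophage-like and 2 of 23 and 1 of 80 in lymphocyte-like cells. The thinned WNT5A shares of stromal-like cells at E125 lay above all of these, as did those of surface epithelium-like cells (37.6%). The WNT5A shares of pregranulosa-like cells at E85 (9.45%) and endothelial-like cells at E125 (5.59%) lay within the macrophage-like limits. So did the WNT5A share of PENK-rich stromal cells at E85 (10.5%, 7.90 to 13.6). For SFRP2 at E85, the lymphocyte-like count (23 cells) allows up to 28.0%, which covers the stromal-like (23.2%) and pregranulosa-like (22.9%) shares. Both shares lay above the limit of 5.21% from E85 endothelial-like cells, where 0 of 69 thinned cells had an SFRP2 UMI. The unthinned SFRP2 level there was 0 UMIs, with an upper limit of 6.57 CPM. The part of free RNA in the SFRP2 shares was not tested.

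**Figure D3:**
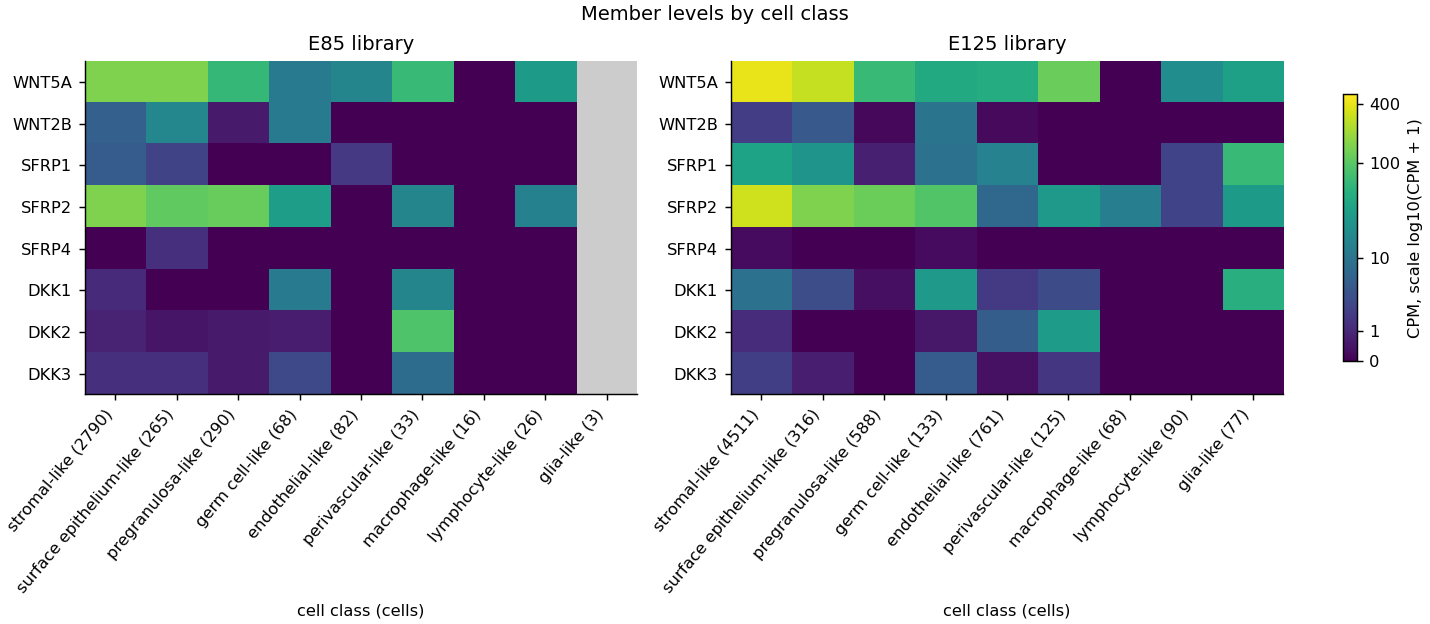
Level of each of the 8 genes (log10 of CPM + 1) in 9 cell classes at E85 and E125; gray marks a class of fewer than 15 cells. WNT5A is high in the stromal-like and surface epithelium-like columns and SFRP2 in those and the pregranulosa-like column, whereas DKK1 is high in germ cell-like cells and, at E125, in glia-like cells.

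The surface epithelium is the mesothelial sheet that covers the ovary and contributes pregranulosa cells. In these cells (265 at E85, 316 at E125) 1 of 4 measured members was higher at E125 and 1 lower, where 13.3% of all measured features were higher and 7.88% lower. SFRP1 went from 2.59 CPM (6 UMIs) to 24.2 CPM (108 UMIs), a ratio of 9.35 (4.16 to 26.0). WNT2B went from 16.9 CPM (39 UMIs) to 4.71 CPM (21 UMIs), 3.58-fold lower (2.05 to 6.40). The WNT2B call was lost with the libraries clustered separately, under the stricter cell filter and in thinned cells, which left 0 lower pairs outside the stroma. WNT5A went from 149 to 287 CPM, a ratio of 1.93 (1.71 to 2.18), short of 2-fold, and SFRP2 from 108 to 149 CPM, a ratio of 1.38 (1.19 to 1.60). The classes came from different clusters: 260 of the E85 cells were in a cluster that held only 25 E125 cells. Those 25 cells had 61.5 CPM of WNT2B (12 UMIs) and 82.0 CPM of SFRP1, against 2.11 and 21.6 CPM in the 291 other E125 cells. Within that cluster WNT2B went the other way from the class. It was 16.9 CPM in the 260 E85 cells and 61.5 CPM (31.8 to 107) in the 25 E125 cells, with intervals apart. Stromal markers summed to 3536 CPM in the 25 cells and to 586 CPM in the 291.

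Pregranulosa-like cells, the supporting cells that enclose oocytes (290 at E85, 588 at E125), had close levels of both measured members at the stages. Different clusters held most of the class, 287 cells of one at E85 and 574 of another at E125. WNT5A was 62.4 and 65.4 CPM, a ratio of 1.05 (0.851 to 1.30), and SFRP2 was 117 and 123 CPM, a ratio of 1.05 (0.903 to 1.23). Neither was called, where 13.6% of measured features were higher and 11.3% lower. Both intervals lie within 2-fold, but they cover counting error only, and variation between animals or libraries was not tested. SFRP1 was near absent in these cells, with 0 UMIs at E85 and 5 at E125 (0.713 CPM). Stromal markers summed to 319 and 268 CPM. The thinned share with SFRP2 was 22.9% at E85 and 21.5% at E125, and the thinned share with WNT5A 9.45% and 11.6%.

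In germ cell-like cells (68 at E85, 133 at E125) 4 of 6 measured members were higher at E125 and 0 lower, where 19.4% of all measured features were higher and 17.8% lower. DKK1 UMIs were concentrated there. Germ cell-like cells were 1.77% and 1.89% of cells and held 10.4% and 22.5% of UMIs, yet 21 of 37 DKK1 UMIs at E85 (56.8%) and 282 of 469 at E125 (60.1%, 55.5 to 64.6). DKK1 was 12.4 CPM at E85 and 27.5 CPM at E125, a ratio of 2.23 (1.43 to 3.65), and it was above the stromal-like level in both libraries. WNT2B was likewise concentrated there at E125, with 102 of 156 UMIs (65.4%), at 12.4 CPM (21 UMIs) and 9.95 CPM (102 UMIs), a ratio of 0.806 (0.50 to 1.36). DKK3 had 5 UMIs (2.94 CPM) and 52 UMIs (5.07 CPM), and 56.5% of the E125 DKK3 UMIs were in germ cell-like cells.

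WNT5A in germ cell-like cells was 12.4 and 42.1 CPM, a ratio of 3.41 (2.20 to 5.57), and SFRP2 was 30.6 and 90.9 CPM, a ratio of 2.97 (2.25 to 4.01). SFRP1 had 0 UMIs at E85 and 97 at E125 (9.46 CPM), which is at least 5.36-fold higher against a floor of 3 UMIs, while the lower limit of the exact interval of the ratio was 4.28. The E125 cells were far deeper, with a median of 48301 UMIs against 4300.5 at E85. After thinning, WNT5A was found in 1 of 53 and 10 of 101 cells, SFRP2 in 4 of 53 and 15 of 101, DKK1 in 3 of 53 and 5 of 101, and SFRP1 in 0 of both, so a stage difference was not detectable at that depth. Stromal markers summed to 288 CPM at E85 and 243 CPM at E125 in these cells. The part of free RNA in these levels was not tested.

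Endothelial-like cells (82 at E85, 761 at E125) had 2 measured members, and both were called higher at E125, where 20.7% of all measured features were higher and 7.54% lower. WNT5A went from 16 CPM (9 UMIs) to 46.4 CPM (275 UMIs), a ratio of 2.89 (1.5 to 6.39), and SFRP1 from 1.78 CPM (1 UMI) to 14.7 CPM (87 UMIs), a ratio of 8.23 (1.44 to 329). Stromal markers summed to 191 CPM at E85 and 625 CPM at E125, and their part in these ratios was not tested. A small E125 cluster of 63 cells with CCL21, FLT4 and PROX1, genes of lymphatic endothelium, held 63 of the 87 SFRP1 UMIs, a level of 133 CPM (102 to 169.6; 10 of 54 thinned cells), and 122 CPM of WNT5A (92.7 to 158). The main endothelial cluster of 672 cells had 4.67 CPM of SFRP1 and 41.1 CPM of WNT5A. Stromal markers summed to 659 CPM in the small cluster and to 633 CPM in the main one. SFRP2 was at 0 UMIs in the small cluster (up to 7.76 CPM) and at 7.79 CPM in the main one. The part of stromal RNA in the SFRP1 and WNT5A levels of the small cluster was not tested. Only 4 E85 cells fell in that cluster, so the E85 level there is not known.

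DKK2, an inhibitor of the same receptors as DKK1, was highest in perivascular-like cells. Perivascular-like cells held 11 of 21 DKK2 UMIs at E85 (88.6 CPM, 44.2 to 159) and 18 of 74 at E125 (29.6 CPM, 17.6 to 46.8), with 0.760% and 1.33% of all UMIs. The E85 value came from 33 cells, 9.09% of which had a UMI. Endothelial-like cells held 31 DKK2 UMIs at E125 (5.23 CPM) and 0 at E85. In glia-like cells at E125 (77 cells) SFRP1 was 66.8 CPM (14 UMIs, 36.5 to 112) and DKK1 47.7 CPM (10 UMIs, 22.9 to 87.8). The SFRP1 interval overlapped that of stromal-like cells and the DKK1 interval that of germ cell-like cells.

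Outside the stroma, 7 of 14 measured pairs of a member and a class were called higher at E125 and 1 lower, where the shares over all measured features in the 4 classes were 13.3% to 20.7% higher and 7.54% to 17.8% lower. With cells thinned to 2000 UMIs 1 pair was higher and 0 lower. Over all kept cells without regard to class, WNT5A was 109.6 and 192 CPM, SFRP2 109 and 163 CPM, SFRP1 3.12 and 19.5 CPM, DKK1 2.27 and 10.3 CPM, and WNT2B 6.80 and 3.43 CPM.

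**Figure D4:**
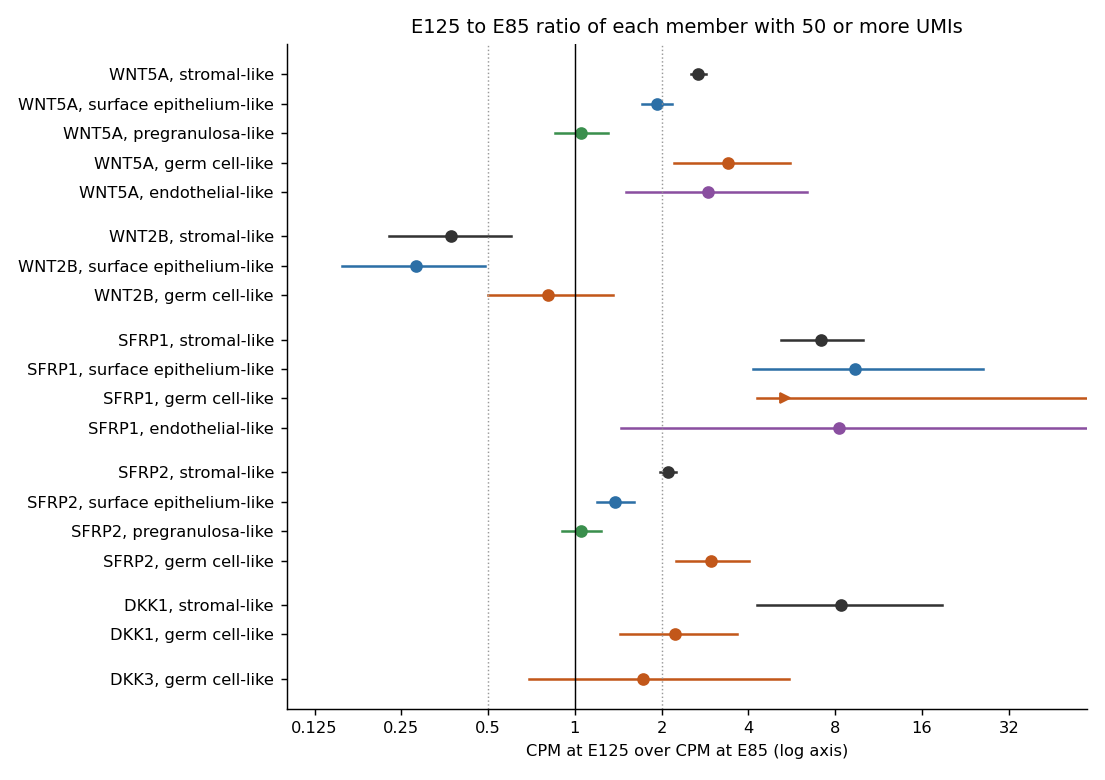
Ratio of the E125 to the E85 level (log axis) of each measured member in each compared class, with 95% intervals for counting error; dotted lines mark 0.5 and 2, and a triangle marks a lower bound where E85 had 0 UMIs. The SFRP1 points lie above 2 in every class where it was measured. The endothelial-like SFRP1 point rests on 1 UMI at E85, and its interval (1.44 to 329) reaches below 2. WNT2B lies below 0.5 in stromal-like and surface epithelium-like cells, and both pregranulosa-like points lie near 1. The surface epithelium-like class came from different clusters, and within the cluster of 260 E85 and 25 E125 cells WNT2B was higher at E125.

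The pathway around the members was described from a list of 82 other WNT genes, 79 of which had a feature. In stromal-like cells 15 of the 40 measured were higher at E125 and 2 lower (17.8% and 12.2% over all measured features), with a median log2 ratio of 0.60 against -0.04 for all features. Both measured ligands were higher: WNT4, a ligand of early ovarian development, from 1.81 to 7.40 CPM (4.08-fold) and WNT11, a ligand of the beta-catenin-independent arm, from 0.605 to 4.23 CPM (7.0-fold). Of 9 receptors 3 were higher and 0 lower. RYK, a WNT-binding pseudokinase receptor, had the largest ratio of the list, from 4.47 to 48.4 CPM (10.8, 7.76 to 15.5). RYK was called higher in the other 4 classes too, at ratios between 2.01 and 8.31. The WNT5A receptors ROR1 and ROR2 had ratios of 1.92 (1.38 to 2.71) and 1.21 (0.829 to 1.78), and FZD7 was 1.42-fold lower; none of these passed 2-fold.

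Among 14 planar polarity and cytoplasmic genes, 4 were higher and 2 lower. DAAM2 (3.52), DVL3 (3.23), AXIN1 (2.53) and VANGL1 (2.19) were the higher ones. DVL3 and VANGL1 were called higher in pregranulosa-like cells too, and AXIN1 in pregranulosa-like, germ cell-like and endothelial-like cells. The lower ones were the polarity genes PRICKLE2, from 11.7 to 4.58 CPM (2.56-fold lower, 1.85 to 3.56), and VANGL2, from 8.71 to 3.81 CPM (2.29-fold lower, 1.58 to 3.32). Of 4 other secreted or surface inhibitors, WIF1, which binds WNT ligands outside the cell, was higher, from 11.7 to 59.2 CPM (5.05, 4.09 to 6.30). FRZB, a protein of the SFRP family, was 1.11-fold lower (1.02 to 1.21).

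Of 5 genes of secretion and potentiation, 4 were higher. RSPO3, a secreted potentiator that keeps frizzled receptors on the membrane, went from 1.45 to 11.6 CPM (8.02, 4.47 to 15.8). LGR4, an R-spondin receptor, had a ratio of 7.38 and RSPO2 one of 3.37. ZNRF3, the ligase that removes frizzled receptors, had a ratio of 4.36 and, like RYK, was called higher in the other 4 classes too. WLS, the carrier every WNT ligand needs for secretion, was 224 and 189 CPM. Of 6 nuclear factors and targets, NKD2 was higher (5.18-fold). AXIN2, a target widely used to read the beta-catenin arm, had a ratio of 1.33 (1.14 to 1.56) and LEF1 was 1.36-fold lower. In the other classes the counts of listed genes were 5 higher and 0 lower of 25 in surface epithelium-like cells (13.3% and 7.88% over all measured features) and 11 and 5 of 31 in pregranulosa-like cells (13.6% and 11.3%). They were 11 and 3 of 38 in germ cell-like cells (19.4% and 17.8%) and 7 and 0 of 25 in endothelial-like cells (20.7% and 7.54%).

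The pattern of each member over 23 classes and stromal subtypes of at least 50 cells was compared with that of 5023 genes by the Pearson correlation of log2(CPM + 1), as a description. These groups share 2 libraries and differ in depth. Nearest to WNT5A were VSNL1 (0.88), MAP9 (0.88) and EPB41L1 (0.86), and nearest to SFRP2 were HMCN1 (0.91), DDAH1 (0.90) and BMPR1B (0.89). SFRP1 had no near match, with NCAM2 at 0.68, TGFBR3 at 0.67 and EEFSEC at 0.65. Among the members, WNT5A correlated with SFRP2 at 0.69, with SFRP1 at 0.38 and with DKK1 at -0.03 over the same groups.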

How the data were processed

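Single-cell RNA-seq of fetal goat ovary was analysed from the deposited UMI counts per gene and barcode (unit: counts). The submitters' processing notes name Cell Ranger 3.1, and the file header names cellranger 6.0.0; the genome build is not given in the sources used here. Of the 27271 features, 10655 have no symbol. Barcodes with at least 500 genes and at most 20% mitochondrial UMIs (13 genes) were kept, which removed 425 at E85 and 809 at E125. Doublets were removed next, taken as the top of the Scrublet score (0.8% for each 1000 barcodes of a library, so 140 and 503); Scrublet's own threshold called 1 and 0. Both libraries were clustered together with scanpy 1.11.5 and leidenalg 0.10.2 (2000 variable genes without the 8 members, 30 principal components, 15 neighbours, Leiden resolution 1, no integration).

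A cluster was named within a library where the mean over a class's markers, each relative to its highest cluster, reached 0.3 with at least 3 markers at 0.25. Dividing clusters with a near second class stayed unnamed, a rule set after the clusters were seen. Names are rebuilt here, so a different naming can move values. UMIs were summed per class or subtype and library and scaled to CPM. Exact Poisson, conditional ratio and Clopper-Pearson 95% intervals came from scipy 1.17.1, and a sum of 0 was replaced by 3 UMIs for a ratio. Classes with at least 50 cells in both libraries were compared (5 classes). Cells are not replicates, so no p-value is given. The scripts were tested on simulated data. Alternatives were other resolutions, separate clustering, other filters, TMM (edgeR 4.0.16) and DESeq2 1.42.0 scaling, means over cells, and thinning.

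The members, the pathway and marker lists and the naming of the most similar genes (the 3 with the highest correlation) and of the pathway genes at either end (the 2 highest and 2 lowest ratios) were chosen with earlier results of these data known. No sequences were used here.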

Additional observations from a re-analysis of the deposited data

How the results depend on the processing

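In stromal-like cells the ratios of the 5 measured members kept their direction under all alternatives that gave a value: 1.79 to 2.84 for WNT5A, 1.79 to 2.27 for SFRP2, 6.33 to 9.66 for SFRP1, 3.93 to 11.3 for DKK1, and 0.338 to 0.442 for WNT2B. The members higher at E125 there numbered 4, but 2 at Leiden resolution 2 and 2 with libraries clustered separately, and the lower one became 0 in thinned cells, where WNT2B did not reach 50 UMIs. Members with their highest level in stromal-like cells at E125 numbered 2, 1 at resolution 2 and with separate clustering, and 3 under the stricter filter. Pairs higher outside the stroma numbered 7, 4 under the stricter filter (1000 genes, 10% mitochondrial), 1 in thinned cells, and up to 10 elsewhere (no doublet removal, mean over cells). Pairs lower there numbered 1, 0 with separate clustering (also with stromal-marked unnamed clusters counted as stromal), under the stricter filter and in thinned cells, and 2 with no cell filter, with no doublet removal and with no minimum on UMIs. Members 2-fold apart over the E85 subtypes numbered 1; the count was 0 at resolution 0.5 and with the members among the variable genes, 2 at resolution 2, with separate clustering (both also with the added naming), as a mean over cells and in thinned cells, and 3 with no doublet removal. Over the E125 subtypes it stayed 3 or 4. The MGP-rich to PENK-rich ratio was 6.89 to 10.0 for WNT5A and 0.0158 to 0.160 for SFRP1; the CA3-rich to PENK-rich ratio of WNT5A was 1.75 to 3.0. The 4 alternatives that regroup stromal or unnamed clusters were chosen after seeing the data. The causes of these changes were not tested. No paired analysis was possible because each stage has 1 library. In stromal-like cells DKK2, DKK3 and SFRP4 had under 50 UMIs, and DKK1 had 9 at E85.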

Other observations

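Clusters without a class also carried the members. At E125 an interferon-led cluster of 102 cells (ISG15, MX1, CCL19), whose stromal markers missed the naming limit, had 3 SFRP1 UMIs and 0 DKK1 UMIs. A mixed dividing cluster of 219 cells had 190.5 CPM of WNT5A, 187 CPM of SFRP2 and 36.7 CPM of SFRP1. At E85 a cluster of 224 cells with CCL19 and HBAI had 44.3 CPM of WNT5A (32.2 to 59.5) and 18.1 CPM of SFRP2, while its stromal markers summed to 2474 CPM. Clusters led by antigen presentation genes (35 cells at E85, 44 at E125, with HLA-DRA and AIF1) had 1 and 6 WNT5A UMIs.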
